A study of Homo sapiens with 8 samples.

Results

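The 82 genes that encode the proteins of the cytosolic ribosome (RP genes) were examined in ChIP-Seq peak lists of PC3 cells, an established human prostate cancer line that came from a bone metastasis. The 82 were taken from 19812 protein-coding genes by their symbols, which are RPL or RPS followed by a number and, for some, A, X or L, together with RPLP0, RPLP1, RPLP2 and RPSA. DAXX K/D cells carried a stable lentiviral shRNA against DAXX (pLKO.1-puro vector, puromycin in the medium) and were set against WT cells. The sample labels call the WT cells wild type, while the study describes a control shRNA line, so WT stands for either. Each line had 1 immunoprecipitation with anti-DAXX, 1 with anti-DNMT1, both goat polyclonal antibodies, and 1 with an antibody labelled DMHH3(Lys4), written here as H3(Lys4) because the prefix is not spelled out. The 2 input libraries have no list of their own here. Every group was thus 1 library, no replicate error could be estimated, and no test was made between K/D and WT cells. Each share carries an exact (Clopper-Pearson) 95% binomial interval, and such intervals speak to counting error alone.

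The cytosolic ribosome has a large subunit, built from the RPL proteins and the RPLP stalk proteins, and a small subunit, built from the RPS proteins and RPSA. Its genes are scattered over the genome, are transcribed strongly in growing cells and mostly have short first exons that begin with a C followed by a run of pyrimidines, the start of the terminal oligopyrimidine (TOP) tract through which mTOR signalling controls their translation. DAXX is a histone H3.3 chaperone and transcriptional co-repressor without a known sequence-specific DNA-binding domain, DNMT1 is the maintenance DNA methyltransferase, and methylation of histone H3 at Lys4 marks active promoters and enhancers.

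Some of the DAXX peaks near RP genes lay on the last bases before the start of transcription. Windows of 100 bases around 7 such starts are printed to show the sequence at and beside these peaks, 80 bases before the start and 20 bases from it, on the strand of the gene (GRCh37, the build of hg19). RPL27 and RPL34 had a DAXX peak in both lines, RPS3A and RPS6 in K/D cells only, and RPS14, RPL3 and RPS18 in WT cells only. The peak centres of RPS3A, RPS6 and RPL3 lie upstream of the printed bases, which these peaks reach only in part. Capitals mark an ETS core (CCGGAAG), an SP1 box (GGGCGG), a nuclear receptor half-site (TGACCTC or TGACCTT) or a TATA element (TATAAA) on either strand.
RPL27: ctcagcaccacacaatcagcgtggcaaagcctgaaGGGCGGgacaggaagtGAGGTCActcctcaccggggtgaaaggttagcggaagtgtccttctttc
RPL34: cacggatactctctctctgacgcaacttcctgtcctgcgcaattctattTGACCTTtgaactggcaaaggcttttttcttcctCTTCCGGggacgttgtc
RPS3A: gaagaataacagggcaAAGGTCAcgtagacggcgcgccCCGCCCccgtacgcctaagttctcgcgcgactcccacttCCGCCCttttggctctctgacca
RPS6: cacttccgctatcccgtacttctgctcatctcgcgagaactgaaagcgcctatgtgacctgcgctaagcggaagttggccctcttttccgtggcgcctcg
RPS14: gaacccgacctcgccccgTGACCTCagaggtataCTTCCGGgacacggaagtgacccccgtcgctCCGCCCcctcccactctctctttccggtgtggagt
RPL3: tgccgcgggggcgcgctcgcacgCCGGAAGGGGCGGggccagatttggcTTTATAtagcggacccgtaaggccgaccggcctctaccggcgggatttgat
RPS18: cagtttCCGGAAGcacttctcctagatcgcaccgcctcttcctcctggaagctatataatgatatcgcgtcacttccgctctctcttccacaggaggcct
The windows lie at chr17:41150356-41150455 (RPL27), chr4:109541652-109541751 (RPL34), chr4:152020700-152020799 (RPS3A), chr9:19380215-19380314 (RPS6), chr5:149829283-149829382 (RPS14), chr22:39715609-39715708 (RPL3) and chr6:33239772-33239871 (RPS18). RPS6, RPS14 and RPL3 are on the minus strand. From the start onward the tract is plain in RPS14 (ctctctttccgg), RPS6 (ctcttttccgtg) and RPS18 (ctctcttccaca). No motif of the set was found in the RPS6 window, which says only that these letters are not there.

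The first question was whether DAXX, DNMT1 and H3(Lys4) peaks were called at RP genes, and in which line. A peak was counted for a gene when its centre lay within 2 kb or 10 kb of any start of that gene, over the 63781 starts of all genes and the 327 of RP genes. The lists held 42894 peaks in K/D cells and 59778 in WT cells for DAXX, 600 and 2237 for DNMT1, and 72215 and 72100 for H3(Lys4), from 12050101 to 18705056 tags. The share of tags inside DAXX peaks was 6.83% in K/D and 15.8% in WT cells, so the K/D library had the weaker enrichment of the pair while having more tags. No expression values were among the files used, and the depletion of DAXX itself could not be checked here.

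DAXX peaks of K/D cells lay within 2 kb of 21 of the 82 RP genes, or 25.6% (16.6 to 36.4), where the background over all protein-coding genes was 23.9%. Those of WT cells lay within 2 kb of 19, or 23.2% (14.6 to 33.8), where the background was 31.4%. The K/D share of RP genes was thus near the background and the WT share was below it, with an interval that includes it. All protein-coding genes had fewer DAXX peaks in K/D cells than in WT cells, whereas the RP count was 21 in K/D and 19 in WT. Within 10 kb the counts were 46 in K/D (56.1%, interval 44.7 to 67.0, background 41.8%) and 51 in WT cells (62.2%, interval 50.8 to 72.7, background 51.2%). With the WT list cut to the length of the K/D list, the WT counts were 14 within 2 kb (17.1%, all genes 22.8%) and 35 within 10 kb (42.7%, all genes 39.6%), so that the K/D count at 10 kb was then the higher. RP genes are short and sit close to others, with a median length of 5440 bp and a median of 1 further gene start within 10 kb, against 26977 bp and 0 for all genes. When a peak was counted only for the gene whose start was nearest to it, 40.2% of RP genes had one within 10 kb in K/D cells (background 35.6%) and 41.5% in WT cells (background 43.9%).

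**Figure D1:**
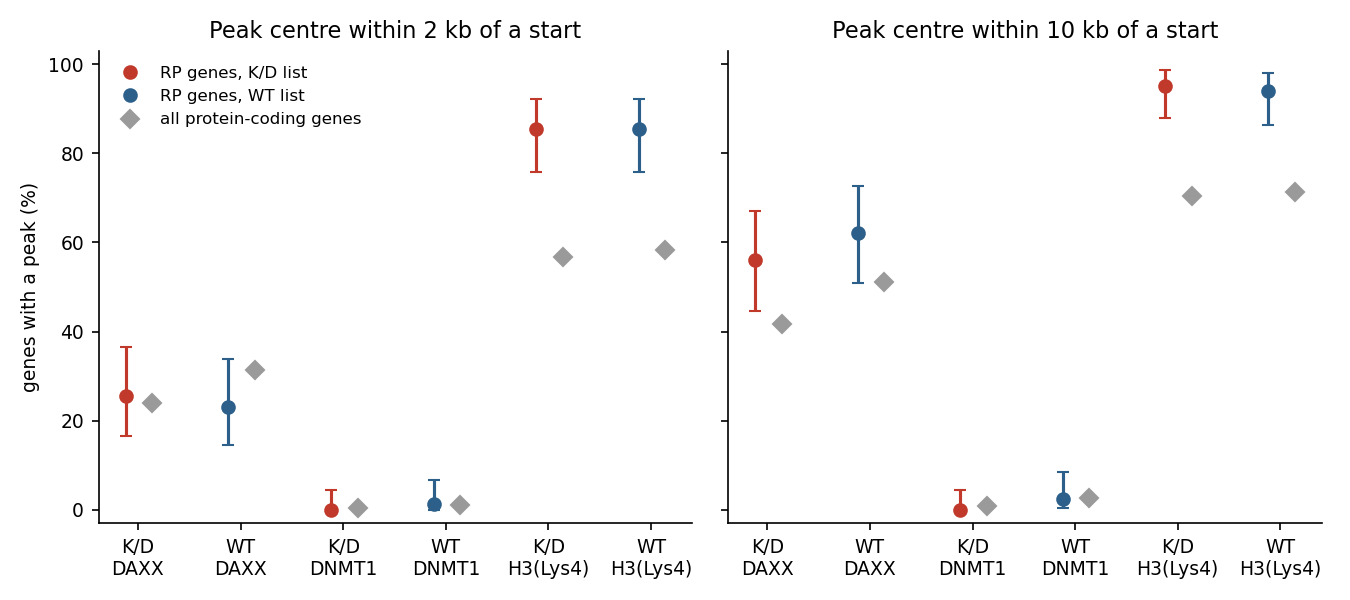
Share of genes (vertical axis, %) with a peak centre within 2 kb (left) or 10 kb (right) of a start, for each antibody with K/D left of WT. Circles are the 82 RP genes with exact 95% binomial intervals, diamonds all 19812 protein-coding genes. The RP share within 2 kb is 25.6% in K/D and 23.2% in WT for DAXX, and 85.4% in both lines for H3(Lys4), where both circles stand above their diamonds.

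The count was repeated among promoters that carried H3(Lys4). Of the 70 RP genes with a K/D H3(Lys4) region, 19 had a K/D DAXX peak, or 27.1% (17.2 to 39.1), where the share among the 11231 protein-coding genes with such a region was 34.0%. Of the 70 RP genes with a WT H3(Lys4) region within 2 kb, 17 had a WT DAXX peak within 2 kb (24.3%, interval 14.8 to 36.0), against 44.4% of the 11527 protein-coding genes with such a region. The K/D interval includes the value of all marked genes, and the WT interval lies below it. Median distances from an RP start to the nearest DAXX peak were 8023 bp in K/D (quartiles 1892 and 22172) and 6097 bp in WT cells (2923 and 15816.2). Over all genes the medians were 15595.5 bp and 9314 bp.

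A group of DAXX peaks lay on annotated RP starts, counting every start of a gene. The K/D peak of RPS27A is among them, though it lay at -795 bp from the canonical start of that gene. Within 150 bp of a start, 9 RP genes had a DAXX peak in the K/D list (11.0%, interval 5.14 to 19.8, all genes 9.18%) and 11 in the WT list (13.4%, interval 6.89 to 22.7, all genes 12.3%). Upstream of the start lay 8 of the 9 K/D peaks and 9 of the 11 WT peaks, with median positions of -83 and -73 bp. Over all genes 69.7% and 70.7% of such positions were upstream. None of the 9 K/D peaks overlapped a K/D H3(Lys4) region (interval up to 33.6%), where 29.3% of the K/D peaks this close to any start did. In WT cells 3 of 11 did (interval 6.02 to 61.0%), against 43.96% for any start.

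RPL27, a large subunit gene mutated in some patients with Diamond-Blackfan anaemia, had its K/D peak at -5 bp (chr17:41150346-41150516, place 7281 in the K/D list) and its WT peak at -55 bp (chr17:41150295-41150467, place 16853 in the WT list). RPL34, of the large subunit, had peaks at -43 bp in K/D (place 8839) and -12 bp in WT cells (place 26957). By place these peaks stood at 17.0% and 20.6% of the K/D list and at 28.2% and 45.1% of the WT list, while the RPLP0 peak stood at 14.3% of the K/D and 3.10% of the WT list. HOMER writes peaks in order of strength, but places in lists of unequal length and enrichment do not compare strength between lines. The score column holds 1 value throughout, so place is the only measure of strength within a list.

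RPL32 had peaks at 6 bp in K/D and 2 bp in WT cells, both inside an exon. RPL28 had peaks at -126 bp in K/D and -98 bp in WT cells, with an additional K/D peak at -509 bp. RPL21 was the member within 2 kb in both lines whose peaks did not overlap, with -373 bp in K/D and 30 bp in WT cells. The RPL4 peaks (-391 bp in K/D, -414 bp in WT) lay 49 and 26 bp from the start of ZWILCH, and the RPL23A peaks (-1713 and -1728 bp) 4 and 11 bp from a start of RAB34, so these belong as well to the neighbours.

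In 13 RP genes a DAXX peak lay within 2 kb in both lists, in 8 in K/D cells only, in 6 in WT cells only and in 55 in neither. Over all protein-coding genes the numbers were 3563 in both, 1180 in K/D only and 2661 in WT only, so genes with a peak in WT only were the larger of the 2 unshared classes there but not among RP genes. At other distances the RP order was not this one, with 12 genes in K/D only and 17 in WT only within 10 kb, and 5 and 5 within 0.5 kb. Over all protein-coding genes these numbers were 1258 and 3123 within 10 kb, and 1015 and 2007 within 0.5 kb. Among the K/D-only members were RPL30, RPL39, RPS27A, RPS29, RPS3A, RPS6 and RPSA. The WT-only members were RPL23, RPL3, RPL9, RPS10, RPS14 and RPS18. Of the K/D-only group 6 of 8 belong to the small subunit, and of the WT-only group 3 of 6. Of all 82 members 32 do, and groups this small cannot show whether either subunit is preferred.

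RPS3A (-83 bp, place 8062 of 42894) had the earliest place among the K/D-only peaks. RPS6, the substrate of S6 kinase, had its K/D peak at -91 bp (place 24460). RPS27A, which is made as a fusion with ubiquitin, had a K/D peak at -10 bp from another start (place 33093). From the canonical start of RPS27A this peak lay at -795 bp. RPL39, a small protein of the exit tunnel, had a K/D peak at -111 bp (place 42017). The RPL39 peak is among the last of the list. In WT cells the nearest peaks were at -75 bp for RPS14 (place 9711 of 59778), -134 bp for RPL3 (place 22182), -63 bp for RPS18 (place 30431), -73 bp for RPL23 (place 38378) and -112 bp for RPL9 (place 54928). RPS14 is the small subunit gene lost in the 5q- syndrome, and RPL3 reaches into the peptidyl transferase centre. The RPL9 peak lay 10 bp from the start of LIAS, a divergent neighbour. A peak absent from a list was not called, which does not show an empty site, and the part of the unequal enrichment of the 2 libraries in these differences was not tested.

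**Figure D2:**
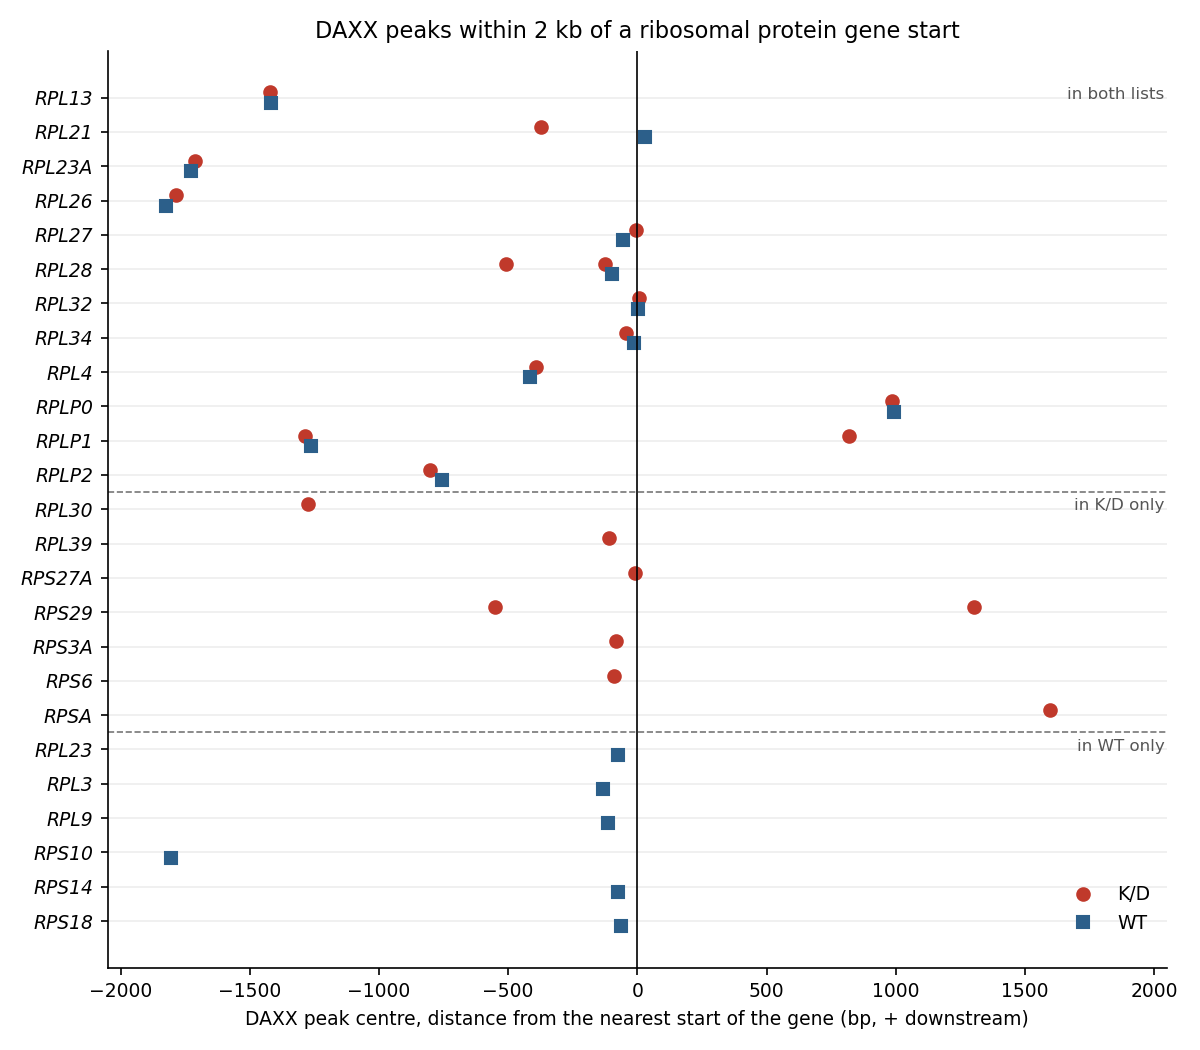
Positions of DAXX peak centres (horizontal axis, bp from the nearest start of the gene, positive downstream) for 25 RP genes with a peak within 2 kb. Red circles are K/D and blue squares WT peaks, and dashed lines part the genes with peaks in both lists (12), in K/D only (7) and in WT only (6). Many centres gather just upstream of 0, and most genes with both symbols show them close together.

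The genes were then grouped by role. DAXX peaks within 2 kb were present at 14 of 50 large subunit genes in the K/D list (28.0%, interval 16.2 to 42.5) and 15 of 50 in the WT list (30.0%, interval 17.9 to 44.6). They were present at 7 of 32 small subunit genes in K/D (21.9%, interval 9.28 to 40.0) and 4 of 32 in WT cells (12.5%, interval 3.51 to 28.99). The intervals of both subunits overlap in each line, and each includes the background of its line (23.9% in K/D, 31.4% in WT) except that of the small subunit in WT. Within 10 kb the large subunit had 29 and 35 genes with a peak and the small subunit 17 and 16, K/D before WT. The backgrounds within 10 kb were 41.8% in K/D and 51.2% in WT.

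The stalk genes recruit and activate the translational GTPases, and RPSA, also known as the laminin receptor, sits on the small subunit. All 4 had a K/D DAXX peak within 2 kb (interval 39.8 to 100%, background 23.9%) and 3 of 4 a WT peak (interval 19.4 to 99.4%, background 31.4%). RPLP0 had an intronic peak at 986 bp in K/D (place 6152) and 994 bp in WT cells (place 1856). RPLP2 had peaks at -801 and -754 bp, and RPLP1 at -1286 and -1264 bp with a further K/D peak at 819 bp. RPSA had a K/D peak at 1595 bp from its nearest start, which is 2408 bp from its canonical start. None of these lay within 500 bp of a start, unlike the peaks of RPL27 or RPL34.

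RPL5 and RPL11, which with 5S rRNA form the particle that binds MDM2, had their nearest DAXX peaks at -27025 and -54316 bp in K/D and at -23433 and 28547 bp in WT cells. Of 16 RP genes mutated in Diamond-Blackfan anaemia, 3 had a peak within 2 kb in K/D (RPL26, RPL27 and RPS29) and 3 in WT cells (RPL26, RPL27 and RPS10). Within 10 kb 5 of the 16 had one in K/D and 9 in WT cells, where the backgrounds were 41.8% and 51.2%. The shares within 2 kb were 18.8% in both lines (interval 4.05 to 45.6), which includes the backgrounds of 23.9% in K/D and 31.4% in WT. RPS19, the first of these genes to be linked to the disease, had its nearest peaks at 16348 bp in K/D and 16283 bp in WT cells. None of the 5 paralogs whose symbols end in L (RPL3L, RPL10L, RPL36AL, RPL39L and RPS27L), several of them restricted in tissue, had a DAXX peak within 2 kb. Within 10 kb 1 had one in K/D and 4 in WT cells. Beside the backgrounds given above, 5 genes are too few to read a difference.

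Many RP genes carry snoRNAs, guides of rRNA modification, in their introns. The 29 such members held 60 snoRNAs, and 12 of the 29 had a DAXX peak within 2 kb in K/D (41.4%, interval 23.5 to 61.1) and 9 in WT cells (31.0%, interval 15.3 to 50.8). Of the other 53, 9 had one in K/D (17.0%, interval 8.07 to 29.8) and 10 in WT cells (18.9%, interval 9.44 to 32.0). The backgrounds were 23.9% in K/D and 31.4% in WT, and the intervals of hosts and other members overlap in each line. For comparison with other genes of translation, 26 of 78 mitochondrial ribosomal protein genes had a DAXX peak within 2 kb in K/D (33.3%) and 30 in WT cells (38.5%). The counts were 12 and 18 of 38 translation factor genes (31.6% and 47.4%), and 7 and 14 of 38 ribosome biogenesis genes (18.4% and 36.8%). In each of these lists the K/D count within 2 kb was the lower of the pair, while among RP genes it was 21 in K/D and 19 in WT. At other distances the RP count was lower in K/D as well, with 46 and 51 within 10 kb and 9 and 11 within 150 bp. Of 5 RP genes that the symbol rule left out (FAU, RPL22L1, RPL26L1 and RPL7L1 among them), 0 had a peak within 2 kb in K/D and 1 in WT cells.

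Seen from the peaks, 61 K/D and 73 WT DAXX peaks lay within 10 kb of an RP start, and an RP gene was the nearest protein-coding gene for 40 and 43 of them. Overlap by at least 1 bp with a peak of the other line was found for 33 of the 61 K/D peaks (54.1%, interval 40.8 to 66.9) and 33 of the 73 WT peaks (45.2%, interval 33.5 to 57.3). Around all protein-coding starts these shares were 66.6% and 46.1%. Within 2 kb, 13 of 25 K/D peaks (52.0%, interval 31.3 to 72.2) and 13 of 20 WT peaks (65.0%, interval 40.8 to 84.6) were shared, against 62.2% and 43.4% around any start. So 12 K/D peaks within 2 kb of an RP start had no WT peak on them, and 7 WT peaks had no K/D peak on them.

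Sharing was lower for later places. When the WT list was cut into 4 equal stretches by place, 9 of 11 RP peaks of the first stretch were shared, 11 of 15 of the next, 8 of 26 of the following and 5 of 21 of the last. Over all WT DAXX peaks the shares were 82.9%, 55.7%, 35.5% and 19.3%. Beyond the midpoint of their list stood 36 of the 61 K/D and 47 of the 73 WT peaks. Inside RP genes lay 16 K/D peaks (3 in exons) and 24 WT peaks (6 in exons). In the WT list 1 peak lay within 10 kb of both RPL3L and RPS2.

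DNMT1 peaks were rare at RP genes, as they were over all protein-coding genes. No RP gene had a K/D DNMT1 peak within 2 kb or 10 kb (0 of 82, interval up to 4.40%), where the background was 0.429% and 0.888%. In WT cells 1 had a peak within 2 kb (1.22%, interval 0.0309 to 6.61, background 1.08%) and 2 within 10 kb (2.44%, interval 0.297 to 8.53, background 2.54%). These shares were near the background in both lines. The RPS14 peak was centred at -76 bp (chr5:149829314-149829442, place 699 of 2237), inside the WT DAXX peak centred at -75 bp (chr5:149829291-149829463). It covers part of the window printed above with its ETS core and half-site, and neither peak had a counterpart in K/D cells. The other member was RPL27, with a DNMT1 peak at -7804 bp (place 1648) that did not overlap a DAXX peak. The WT list was 2237 peaks long and the K/D list 600, and at the length of the K/D list the WT list held 0 RP genes at either distance.

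H3(Lys4) regions were found at most RP genes in both lines. Within 2 kb 70 of 82 had a region in the K/D list (85.4%, interval 75.8 to 92.2) and 70 in the WT list (85.4%, the same interval), against 56.7% and 58.2% of all genes. Within 10 kb there were 78 in K/D (95.1%, interval 88.0 to 98.7, background 70.4%) and 77 in WT cells (93.9%, interval 86.3 to 97.99, background 71.3%). The same 62 genes had a region within 2 kb in both lists. The 8 with a region in K/D cells only were RPL13A, RPL23, RPL26, RPL36A, RPL39L, RPL41, RPS16 and RPS9. Among the 8 with a region in WT cells only were RPL32, RPL9, RPS15, RPS19, RPS20, RPS3 and RPS4X. This count goes by the centre of a region, and K/D regions of RPS3 (428 to 4141 bp) and RPS15 (1385 to 3223 bp) began within 2 kb. By the nearest edge 74 RP genes had a region within 2 kb in K/D and 70 in WT cells, against 59.2% and 60.6% of all genes. By subunit, 45 of 50 large subunit genes had one in K/D and 41 in WT cells, and 25 of 32 small subunit genes had one in K/D and 29 in WT cells.

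Few RP starts were themselves covered. With 1 start per gene, the base at the start was covered by a region in 3 RP genes in K/D (3.66%, interval 0.761 to 10.3) and 10 in WT cells (12.2%, interval 6.01 to 21.3), against 11.8% and 21.9% of all genes. Regions flanked a free start on both sides within 2 kb in 31 RP genes in K/D (37.8%, interval 27.3 to 49.2) and 38 in WT cells (46.3%, interval 35.3 to 57.7), against 19.1% and 18.8% of all genes. Of the 82 starts, 31 in K/D and 15 in WT cells had a region on the downstream side only (37.8% and 18.3%), against 18.3% and 12.4% of all genes. Cover upstream was highest at -700 bp in K/D (40.2% of RP genes) and at -650 bp in WT cells (53.7%).

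Downstream of the start the cover of RP genes lay farther into the gene in K/D cells. It was highest at 1550 bp in K/D (64.6% of RP genes) and at 900 bp in WT cells (76.8%), where the maxima of all genes lay at 900 and 850 bp. At 500 bp, 31.7% of RP genes were covered in K/D and 52.4% in WT cells, and at 1000 bp 57.3% and 76.8%. At 2000 bp the order was turned, with 56.1% in K/D (interval 44.7 to 67.0) and 42.7% in WT cells (31.8 to 54.1). So it stayed at 2500 bp, with 35.4% (25.1 to 46.7) in K/D and 23.2% (14.6 to 33.8) in WT cells. The K/D and WT intervals of RP genes overlap at 500, 1000, 2000 and 2500 bp. Over all protein-coding genes K/D was below WT at each of these distances, with 19.3% and 22.2% at 2000 bp and 13.7% and 15.8% at 2500 bp. Other gene lists of translation were mixed. At 2000 bp K/D was also above WT in mitochondrial ribosomal protein genes (16.7% and 14.1%) and ribosome biogenesis genes (42.1% and 36.8%), and below it in translation factor genes (50% and 55.3%). At 2500 bp the shares were 6.41% and 11.5% in mitochondrial ribosomal protein genes, 26.3% and 23.7% in ribosome biogenesis genes and 39.5% in both lines in translation factor genes.

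The edges were then compared gene by gene. In 45 RP genes a first downstream region was present in both lists with the start free. Its near edge lay at a median of 671 bp in K/D and 407 bp in WT cells and was farther in K/D in 31 of 45 genes (68.9%, interval 53.4 to 81.8), against 62.3% of 4042 protein-coding genes, 75% of 24 mitochondrial ribosomal protein genes, 58.8% of 17 translation factor genes and 76.5% of 17 ribosome biogenesis genes. The median difference of the near edge, K/D minus WT, was 262 bp in RP genes, 105 bp over all genes, and 217, 238 and 274 bp in these 3 lists, so the near edge did not set RP genes apart from them. Its far edge lay at 2456 bp in K/D and 2035 bp in WT cells and was farther in K/D in 30 of 45 (66.7%, interval 51.0 to 79.999), against 46.6% of all genes and 45.8%, 35.3% and 47.1% of the 3 lists. The median difference of the far edge, K/D minus WT, was 323 bp in RP genes and -44 bp over all genes. In mitochondrial ribosomal protein genes it was -75 bp (24 genes), in translation factor genes -190 bp (17 genes) and in ribosome biogenesis genes -30 bp (17 genes). Widths in RP genes had medians of 1674 bp in K/D and 1662 bp in WT cells, while over all genes they were 1263.5 and 1516 bp. This comparison was chosen after the profiles were seen, rests on 1 library per line and has no replicate check.

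RPS14 showed it plainly, with a region from 1439 to 2456 bp in K/D and from 320 to 1543 bp in WT cells. RPS3A had a region from 764 to 2878 bp in K/D and from 402 to 1669 bp in WT cells. RPS15 had 1385 to 3223 bp in K/D and 208 to 1869 bp in WT cells. Some members ran the other way: in RPL11 the region ended at 1653 bp in K/D and 2857 bp in WT cells, and in RPS10 at 1190 and 2530 bp. RPS18 hardly differed, with 279 to 4273 bp in K/D and 295 to 4270 bp in WT cells.

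**Figure D3:**
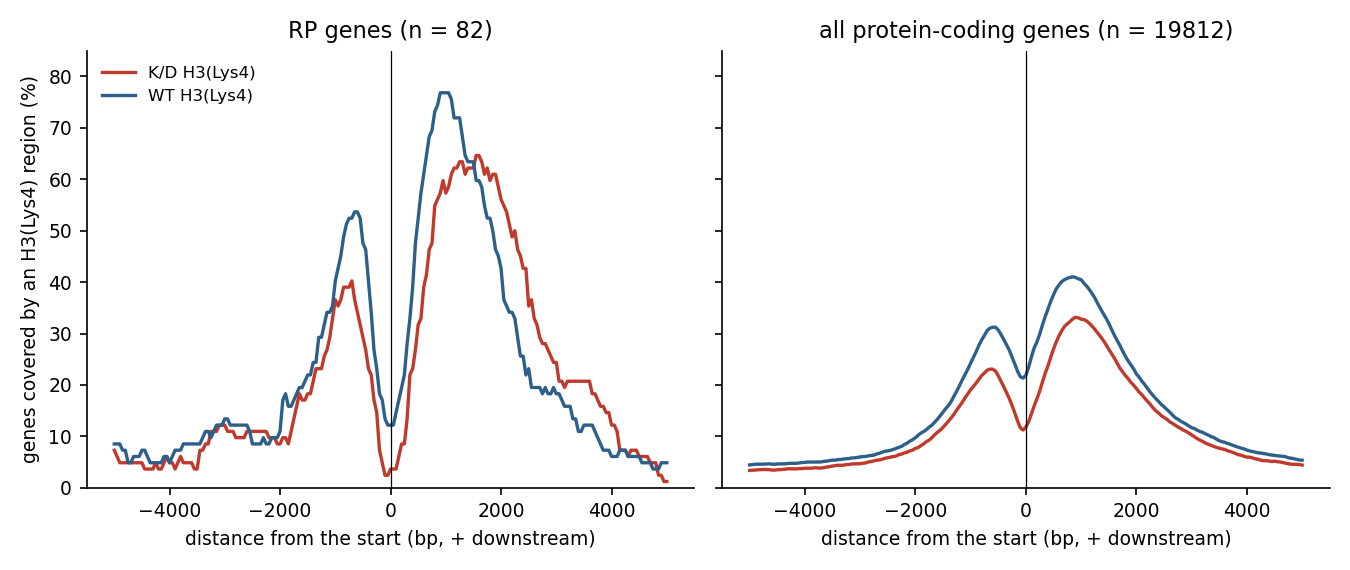
Share of genes (vertical axis, %) whose position at each distance from the start (horizontal axis, bp, positive downstream, 1 start per gene) was covered by an H3(Lys4) region, in K/D (red) and WT (blue) cells, for the 82 RP genes (left) and all 19812 protein-coding genes (right). RP genes show a deep gap at the start (3.66% in K/D, 12.2% in WT) and a K/D curve that lies above the WT curve from 1550 to 4100 bp, while over all genes the K/D curve is nowhere above the WT curve.

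The amount of cover was lower in K/D cells, as over all genes. Within 2 kb on either side of the start, a median of 1310.5 bases was covered per RP gene in K/D (quartiles 785 and 1834.5) and 1760.5 in WT cells (1009.25 and 2558.75), against 501 and 844 over all genes. It was lower in K/D in 48 members, higher in 28, equal in 2, and 4 had no region in either list. Where both lists had a region, the median difference, K/D minus WT, was -427 bases in 64 RP genes and also -427 in 9323 protein-coding genes. So the lower cover near RP starts was of the size seen genome-wide. The H3(Lys4) library of K/D cells was the less enriched, with 15.1% of its tags inside regions against 23.9% in WT cells. Over the genome the regions covered 64.4 Mb in K/D and 78.1 Mb in WT cells. The part of this unequal enrichment in the lower cover was not tested.

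RPL36A, RPS9, RPS16, RPL41 and RPL13A had 2550, 2127, 2056, 1527 and 1517 bases covered in K/D and 0 in WT cells. RPLP0, RPS19, RPL32 and RPL9 had 0 in K/D and 2687, 2503, 2455 and 2420 in WT cells. For RPLP0 and RPL32 the regions nearest to the start in K/D cells lay just outside, from 2510 to 4489 bp and from 2479 to 4117 bp, where WT cells had broad regions from 341 to 5467 bp and from 175 to 4711 bp. RPS19 and RPL9 had no region within 10 kb in K/D cells. RPL30 had the most cover in WT cells, with 2264 bases in K/D and 3943 in WT, and RPL19 the most in K/D cells, with 3159 in K/D and 3083 in WT.

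**Figure D4:**
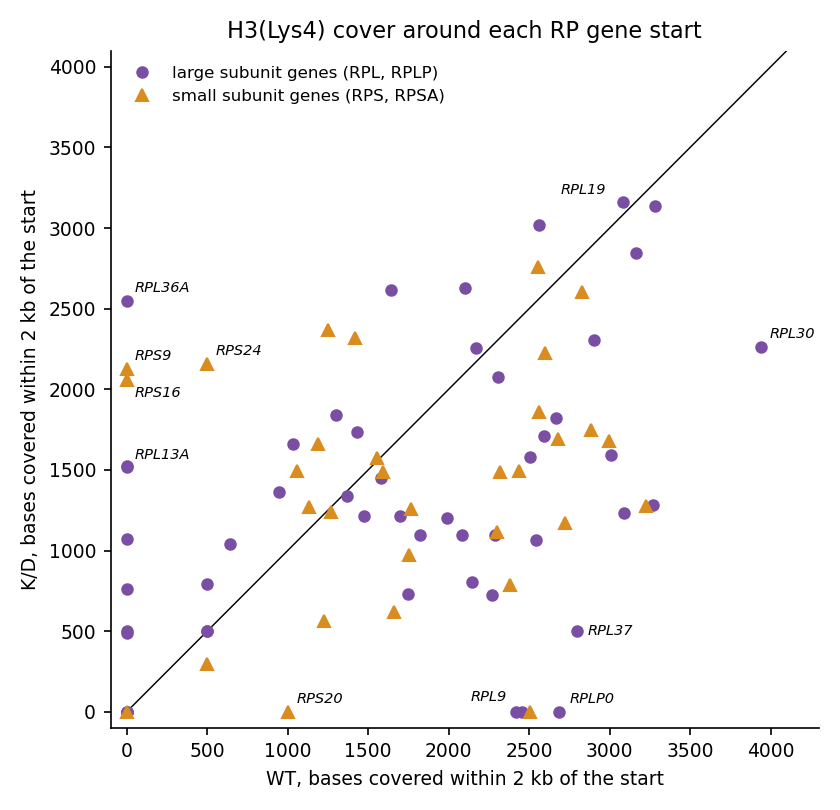
Bases covered by H3(Lys4) regions within 2 kb of the start of each RP gene, K/D on the vertical and WT on the horizontal axis (bp), with circles for large and triangles for small subunit genes and a line of equality. Below the line lie 48 genes and above it 28, among them RPL36A, RPS9, RPS16 and RPL13A on the vertical axis, where WT cells had 0 bases, and RPLP0 and RPL9 on the horizontal axis, where K/D cells had 0.

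RPS24, a small subunit gene mutated in Diamond-Blackfan anaemia (chr10, canonical start 79793621, plus strand), had the earliest places of all RP genes in the DAXX lists. From this start its peak lay at -7925 bp in K/D (chr10:79785611-79785781, place 342 of 42894) and -7933 bp in WT cells (chr10:79785602-79785774, place 303 of 59778). The start of POLR3A, a subunit of RNA polymerase III, was nearer to it (3577 and 3585 bp). In K/D cells the H3(Lys4) region that runs from 472 to 3643 bp downstream of the RPS24 start stood at place 8 of 72215. No region was called there in WT cells. Just upstream of the start both lines had a region. It ran from -946 to -318 bp in K/D (place 2438) and from -826 to -326 bp in WT cells (place 9880 of 72100). That the H3(Lys4) lists are ordered by strength is less certain than for DAXX. In WT cells the first region by place (30) was upstream, from -7931 to -4444 bp, where K/D cells had a region from -5981 to -4485 bp (place 177) and, farther upstream and outside the WT region, another from -8813 to -8024 bp (place 1577). Early places were also held by RPL37 (-7296 bp, place 4184 in K/D, and -7307 bp, place 1727 in WT), 1151 and 1162 bp from a start of CARD6, and among WT peaks by RPLP0 (place 1856).

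The sequence of RP promoters was then examined, 250 bases before to 50 after 1 start per gene, on both strands. An ETS core (CCGGAAG) was present in 28 of 82 (34.1%, interval 24.03 to 45.4), against 13.96% of all protein-coding promoters. The YY1 motif (AAGATGGCG) was in 8 (9.76%, interval 4.31 to 18.3, all 2.83%), and the SP1 box (GGGCGG) in 51 (62.2%, interval 50.8 to 72.7, all 61.2%). A CTCF consensus was in 3 (3.66%, all 0.480%), an AP-1 site (TGAGTCA or TGACTCA) in 1 (1.22%, all 3.55%), and a forkhead site (TGTTTAC) in 0 (interval up to 4.40%, all 2.46%). The nuclear receptor half-site was in 10 (12.2%, interval 6.01 to 21.3, all 7.21%), the E-box (CACGTG) in 5 (6.10%, all 8.73%), TATAAA in 7 (8.54%, all 9.74%), the RUNX site (TGTGGT) in 13 (15.9%, all 10.8%) and the TEAD site (GGAATG) in 5 (6.10%, all 11.3%). A start with a C at position 1 and pyrimidines at the next 4 was annotated in 66 of 82 RP genes over all their starts (80.5%, interval 70.3 to 88.4), against 8.52% of all genes. These are matches of letters and do not show a bound factor.

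Under the DAXX peaks within 2 kb of RP starts (201 bases around the centre, 25 peaks in K/D and 20 in WT), the half-site was present in 11 K/D peaks (44%, interval 24.4 to 65.1) and 8 WT peaks (40.0%, interval 19.1 to 63.9). Around any protein-coding start 23.5% and 20.8% of DAXX peaks held it. ETS cores were in 5 and 5 (20% and 25%, any start 8.73% and 8.54%) and AP-1 sites in 6 and 6 (24% and 30.0%, any start 16.6% and 17.1%, all DAXX peaks 35.4% and 36.2%). SP1 boxes were in 8 and 8 (32.0% and 40.0%, any start 37.9% and 38.6%). The windows printed above show the half-site in RPL27 and RPL34, where DAXX was called in both lines, in RPS3A with its K/D peak and in RPS14 with its WT peak. Intervals on counts of this size are wide, and of the motifs named the half-site in K/D and ETS in WT peaks had lower limits (24.4% and 8.66%) just above the share around any start.

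**Figure D5:**
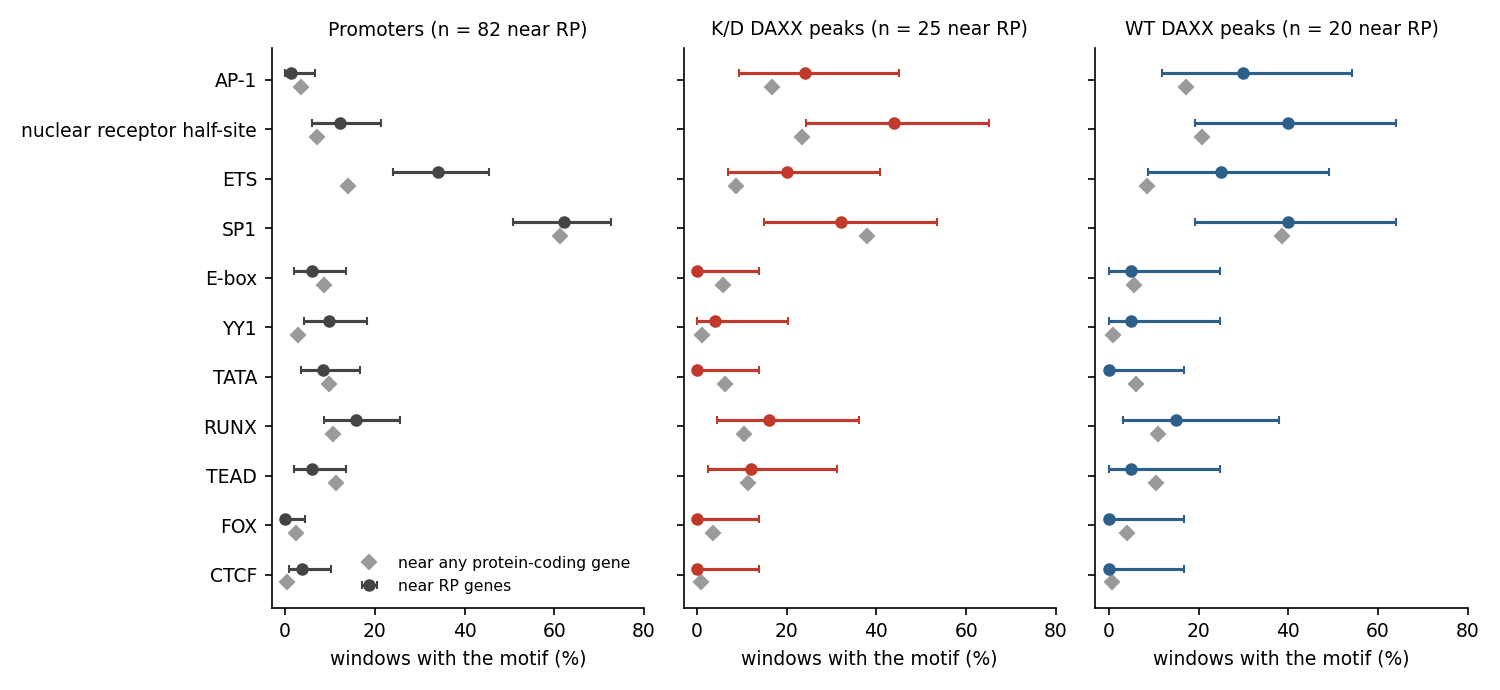
Share of windows with each motif (horizontal axis, %) in promoters (left, 82 RP), K/D DAXX peaks (middle, 25 near RP) and WT DAXX peaks (right, 20 near RP). Circles with exact 95% intervals are RP windows and diamonds all protein-coding promoters or DAXX peaks within 2 kb of any protein-coding start. The ETS core stands at 34.1% of RP promoters against 13.96% of all, and the half-site at 44% of K/D and 40.0% of WT peaks near RP starts.

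RP genes have many processed pseudogenes, and reads that fit several places were removed by the authors. Of the 50-base words within 500 bp of each start, a median of 0.315% recurred elsewhere in the genome, and 39 members had none. Among the members with more were RPS29 (30.4%), RPL24 (17.1%) and RPS10 (10.6%). Of 1604 RP pseudogenes, 9 held the centre of a K/D and 13 that of a WT DAXX peak, 19 and 21 that of an H3(Lys4) region, and 0 that of a DNMT1 peak in either line.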

How the data were processed

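The authors' reads came from CASAVA 1.8.2 and were placed on hg19 by Bowtie2 2.1.0. Reads with more than 1 location were dropped, and HOMER 4.6 called the peaks (labels and methods of the study). Per the file headers, a peak of any list needed 4.0 times its input with a p-value of 0.0001 and 4.0 times its local 10 kb background. Other settings differed. DAXX and DNMT1 peaks were called at a false discovery rate of 0.001 with set sizes from 120 to 173 bp. H3(Lys4) regions were called at a Poisson p-value of 0.001, with a size of 500 bp and a minimum distance of 1000 bp. The deposited columns used are start and end positions. The deposited score is constant, so strength was read from place in the list. Peaks on other contigs (113) were left out.

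Starts were all basic protein-coding transcripts of GENCODE release 44 on GRCh37. Cover and promoters used the canonical start. Distances, overlaps (at least 1 bp) and exact intervals were computed in Python with pandas 2.3.3 and scipy 1.17.1, and tested on planted peaks. Members and lists were chosen with earlier results of these data known. Named genes were those with a DAXX peak within 2 kb or a DNMT1 peak within 10 kb, those without H3(Lys4), those sharing a peak, RPS24, and the disease, stalk, 5S and paralog groups. Genes named for their H3(Lys4) cover or edges were chosen after the values were seen. Alternatives changed the distance measure, the starts, the list length, the members and the overlap rule, and 1 more, counting a peak only for the gene with the nearest start, was chosen after seeing the data. A few genes are not reported here by name.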

Additional observations from a re-analysis of the deposited data

How the results depend on the processing

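With 1 library per group no replicate could be left out. No paired analysis was possible because each antibody had a single library in each line. Of 86 values recomputed under alternatives, 73 moved by less than their counting interval or by less than 1.5 times. With only the first 50% of each list, 9 RP genes had a DAXX peak within 2 kb in K/D and 8 in WT cells (11.0% and 9.76%, all genes 12.5% and 15.8%), 21 and 21 had one within 10 kb (25.6% in both, all genes 24.1% and 29.7%), and 1 had a WT DNMT1 peak within 10 kb. With the longer list cut to the length of the shorter, 0 RP genes had a WT DNMT1 peak within 2 kb and 0 within 10 kb. Of WT DAXX peaks near RP starts, 45.2% were shared within 10 kb and 65.0% when only those within 2 kb were taken. Around any protein-coding start these shares were 46.1% and 43.4%. Of the 179 WT H3(Lys4) regions within 10 kb of an RP start, 65.4% overlapped a K/D region by at least 1 bp. Within 10 kb of any protein-coding start 58.1% did. The RP share was 10.1% with centres within 100 bp and 35.8% with at least 50% of each in common. Within 2 kb of an RP start 72.4% of WT regions were shared, against 67.4% around any start. With 1 start per gene the median distance to H3(Lys4) was 1271.5 bp in K/D and 1005.5 bp in WT cells. The causes of these shifts, other than the construction of each alternative, were not tested. The depth and enrichment of single libraries limit what an uncalled peak can show.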
